A study of Mus musculus with 12 samples.

Results

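Caspases are cysteine proteases that cut other proteins after aspartate residues. They fall into inflammatory caspases, which act downstream of sensors of microbes and damage, and apoptotic caspases, in which initiators are switched on by receptor or mitochondrial complexes and then activate executioners. In T cells the apoptotic arm removes cells through Fas and through loss of survival signals, and caspase-8 is also needed for T cells to expand. The RNA level of a caspase gives no measure of its activity, because these enzymes are made as inactive precursors. Described here are the 6 caspase genes Casp1, Casp2, Casp4, Casp6, Casp8 and Casp9, taken as every probe set whose platform annotation names one of them and no other gene. The rule gave 9 probe sets of the 45037 tested. Casp6 was read by 2 probe sets, Casp9 by 3 and each of the others by 1.

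The samples were splenic CD4+ T cells of mice aged 6 weeks. Regulatory T cells (Treg, CD25 high) and conventional T cells (Tconv, CD25-) came from NOD mice, which develop autoimmune diabetes, and from B6.H2g7 mice, written B6g7 here, a B6 strain that carries the H2g7 major histocompatibility haplotype also found in NOD. All 4 groups therefore share that haplotype, and they held 3 arrays each, 12 in all, with RNA pooled from 3 mice per array, so differences between single mice were not measured. All cells were enriched on magnetic beads and sorted in 2 passes, without CD8a, CD11b, CD69 or B220. The labels give Foxp3+ shares of 94%, 96% and 96% in the B6g7 Treg pools and of 89%, 95% and 95% in the NOD Treg pools. All values below are log2 of the deposited array intensity unless a fold is given, and a change was called at an adjusted p under 0.05 over all tested probe sets (limma, Benjamini-Hochberg).

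The arrays followed their labels. Foxp3, the lineage factor of Treg, averaged 11.00 in B6g7 Treg and 11.05 in NOD Treg against 5.68 and 5.91 in the Tconv of the same strains. All 5 Treg markers were higher in Treg in both strains. No marker of monocytes and macrophages was called in any comparison (0 of 7 measured), nor of dendritic cells (0 of 6) or neutrophils (0 of 6). Of 6 B cell markers, Cd79b was called higher in Treg in B6g7, in NOD and averaged, with summed B cell marker intensities of 632.5 to 804.5 in Tconv and 656.4 to 791.9 in Treg. Of 5 T cell markers, Cd4 was called lower in Treg averaged over strains. The part of these markers in the caspase changes was not tested. The summed intensity of the monocyte and macrophage markers overlapped in all groups, from 716.4 to 850.7 in the Tconv and 751.2 to 859.3 in the Treg of B6g7, and from 775.8 to 821.6 and 735.7 to 828.2 in those of NOD. The r between 2 arrays of the same group was 0.983 to 0.996. As in any bulk sample, a lower share of cells that express a gene and less RNA per cell cannot be told apart.

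The 9 caspase probe sets fell into a group that moved and a larger one that did not pass the test. Casp1, Casp4 and Casp8 were called higher in Treg than in Tconv of B6g7 mice, 3 of 9 probe sets, where 2.04% of all probe sets were called higher. In NOD mice Casp1 and Casp4 were called higher in Treg, 2 of 9, against 2.09% of all probe sets. With the replicate number as a block, the same 2 caspases were called there, while 2362 probe sets were called in either direction in place of 1443. With the change averaged over both strains, 3 of 9 were called higher against 3.45%, again Casp1, Casp4 and Casp8. No caspase probe set was called lower in Treg in B6g7, in NOD or averaged, where 1.34%, 1.11% and 2.4% of all probe sets were. The caspases were chosen with earlier results of these data known, so their counts beside such shares are a description. The intensity of every one of the 9 lay above the dim level, the 25th percentile of probe set means (5.28), on all 12 arrays. Foxp3 in the Tconv of B6g7 and NOD, at 5.68 and 5.91, lay above that level too, so passing it does not show expression.

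**Figure D1:**
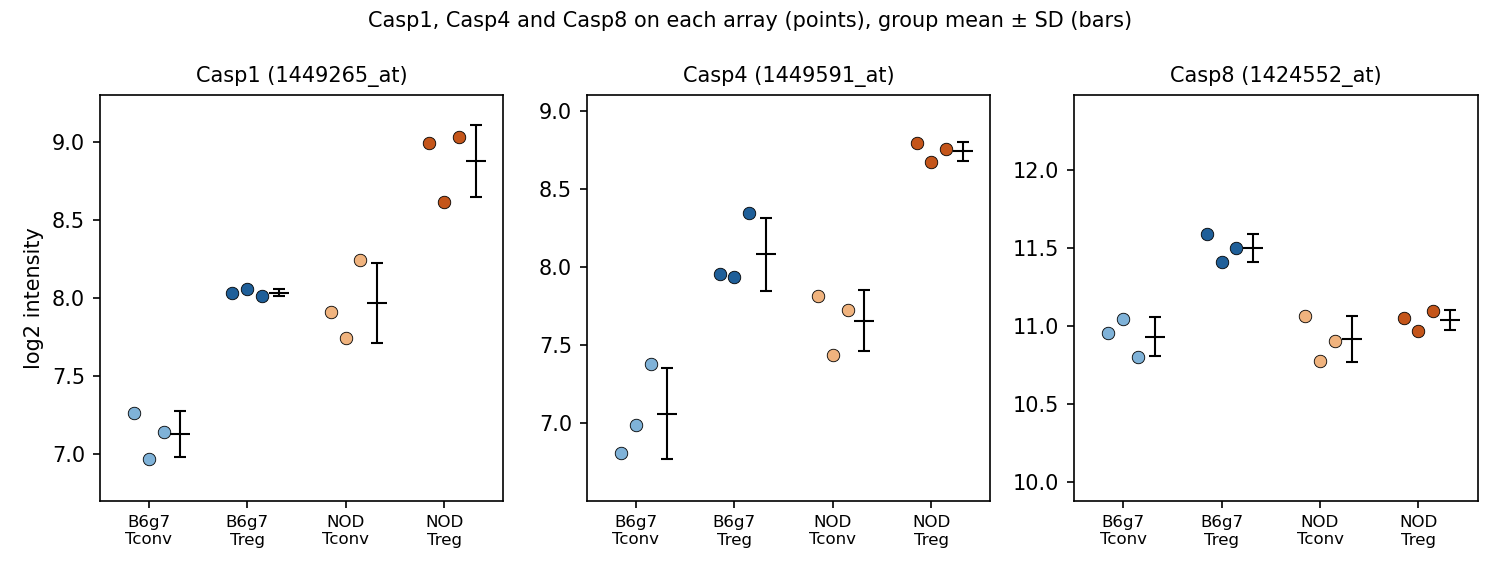
Log2 intensity of Casp1, Casp4 and Casp8 on each of the 12 arrays (points, left to right replicates 1 to 3) with the group mean ± SD (bars, n = 3), in 4 groups on the horizontal axis; each panel has its own log2 range. By group mean, Casp1 and Casp4 were lowest in B6g7 Tconv and highest in NOD Treg, while Casp8 was highest in B6g7 Treg, at 11.41 to 11.59.

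Casp1 and Casp4 are the inflammatory caspases of the set. Caspase-1 matures interleukin-1 beta and interleukin-18 within inflammasomes. Mouse caspase-4, also known as caspase-11, senses cytosolic lipopolysaccharide, and both cut gasdermin D, the pore former of pyroptosis. Casp1, Casp4 and Casp12 follow each other on chromosome 9 in the RefSeq annotation. The 250 bases before the annotated start of Casp1 and of Casp4 are printed because these neighbouring genes were both higher in Treg and both higher in NOD. They are from RefSeq, build GRCm38.p6, at chr9:5298267-5298516 and chr9:5308599-5308848, both on the + strand, and the reference sequence is not that of NOD. For Casp4 the first of 2 listed windows is shown. Capitals mark matches to the NF-kappaB consensus and to the forkhead motif TGTTTAC on either strand:
Casp1: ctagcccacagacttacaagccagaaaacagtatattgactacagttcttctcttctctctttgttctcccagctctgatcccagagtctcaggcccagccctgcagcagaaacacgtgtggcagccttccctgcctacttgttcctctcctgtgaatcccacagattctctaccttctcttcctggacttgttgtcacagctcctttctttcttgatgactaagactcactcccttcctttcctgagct
Casp4: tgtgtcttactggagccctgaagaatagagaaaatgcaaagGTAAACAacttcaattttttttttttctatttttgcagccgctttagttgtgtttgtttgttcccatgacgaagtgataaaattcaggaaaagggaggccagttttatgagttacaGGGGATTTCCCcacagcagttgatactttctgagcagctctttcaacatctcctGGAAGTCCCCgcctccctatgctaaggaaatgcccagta

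The Casp4 window held 2 separate matches to the NF-kappaB consensus and 1 to the forkhead motif, the latter read on the reverse strand. The Casp1 window held neither. Of 32851 promoter windows of the same length, 7.3% held the NF-kappaB consensus and 3.2% the forkhead motif. The STAT motif TTCNNNGAA (7.0% of windows) and the core of the interferon response element, GAAA followed after any 2 bases by GAAA (3.0%), matched in none of the 6 caspase windows searched, and no motif of the 4 matched in those of Casp2, Casp6, Casp8 and Casp9. These matches describe letters in a window and say nothing of binding.

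Casp1 (probe set 1449265_at) rose in Treg of both strains, with changes that rounded to the same value. Its level was 7.27, 6.97 and 7.14 in the 3 B6g7 Tconv arrays and 8.03, 8.06 and 8.02 in the B6g7 Treg arrays. In NOD it was 7.91, 7.75 and 8.25 in Tconv and 8.998, 8.62 and 9.04 in Treg. Within each strain every Treg array lay above every Tconv array, but NOD Tconv reached the level of B6g7 Treg. In B6g7 such an order was found in 8.5% of all probe sets, and the share in NOD is not given here. The change was 0.91 ± 0.14 (SE, 95% interval 0.60 to 1.22, 1.88-fold, adjusted p = 0.00217) in B6g7. In NOD it was 0.91 ± 0.14 (1.88-fold, adjusted p = 0.0023). The strains' changes differed by 0.003 ± 0.20, with a 95% interval of -0.43 to 0.44 (adjusted p = 0.999).

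Casp4 (1449591_at) showed the largest change of the caspases in Treg. The 3 B6g7 Tconv arrays read 6.81, 6.99 and 7.38, and the B6g7 Treg arrays 7.96, 7.93 and 8.35. The NOD Tconv arrays read 7.81, 7.44 and 7.72, and the NOD Treg arrays 8.80, 8.67 and 8.75. All 6 Treg arrays lay above all 6 Tconv arrays, an order found in 2.22% of all probe sets, and Casp4 was the only caspase probe set with it. The rise was 1.02 ± 0.16 in B6g7 (2.03-fold, adjusted p = 0.00192) and 1.08 ± 0.16 in NOD (2.12-fold, adjusted p = 0.00131). The difference between these changes was 0.06 with a 95% interval of -0.42 to 0.55 (adjusted p = 0.98).

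Both inflammatory caspases were also higher in NOD than in B6g7. Averaged over Treg and Tconv, Casp1 was 0.84 ± 0.10 higher in NOD (1.80-fold, adjusted p = 0.000137) and Casp4 0.63 ± 0.11 higher (1.55-fold, adjusted p = 0.00334). These were 2 of 9 caspase probe sets, where 2.73% of all probe sets were called higher in NOD. In Tconv, Casp1 was 0.84 higher (1.79-fold, adjusted p = 0.00414), the 1 caspase called there, against 1.31% of all probe sets called higher. Casp4 was 0.60 higher in NOD Tconv (95% interval 0.26 to 0.94, adjusted p = 0.0718), which did not pass, although its NOD and B6g7 Tconv arrays did not overlap. Non-overlap in that direction was seen in 10.3% of all probe sets. Markers of Treg moved the same way in Tconv: Ikzf2 and Tnfrsf18, 2 of 5, were called higher in NOD Tconv than in B6g7 Tconv, and the summed intensity of the 5 was 1736 to 2121 against 1113 to 1322, with no overlap. In Treg the sums were 12120 to 15700 in NOD and 12060 to 17450 in B6g7, and their part in the strain difference of Casp1 and Casp4 was not tested. In Treg, Casp1 was 0.85 higher in NOD (adjusted p = 0.00396) and Casp4 0.66 higher (adjusted p = 0.0373), 2 of 9 against 1.6% of all probe sets. The Casp4 call in Treg was lost without any one of 5 of the 6 Treg arrays (highest adjusted p = 0.143). Without the 4 arrays numbered replicate 1, the adjusted p of NOD against B6g7 in Treg was 0.0508 for Casp1 and 0.183 for Casp4.

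Population and strain each held a part of the spread of these genes. Of the variance of Casp1 over the 12 arrays, 50.7% lay between Treg and Tconv, 43.6% between the strains and 5.7% within groups. For Casp4 the shares were 68.2%, 24.4% and 7.4%. The order of group means was the same for both, from B6g7 Tconv (7.13 for Casp1, 7.06 for Casp4) through NOD Tconv and B6g7 Treg to NOD Treg (8.88 and 8.74). The means of the middle groups, NOD Tconv and B6g7 Treg, were 7.97 and 8.04 for Casp1 and 7.66 and 8.08 for Casp4. The difference between these groups was not tested. Each of these genes was read by a single probe set, so no second reading stood beside the strain difference.

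Most other genes of the same stretch of chromosome 9 were not called, and some of them were dim. The measured neighbours in order were Kbtbd3, Msantd4, Gria4, Casp1, Casp4, Casp12, Pdgfd, Ddi1 and Dync2h1. Casp1 and Casp4 were the only ones called between strains (averaged over populations), with Kbtbd3 0.25 higher in NOD at an adjusted p of 0.0508. Between Treg and Tconv, Dync2h1 was also called, at 0.30 (adjusted p = 0.0229). Group means of Ddi1, 4.51 to 4.66, lay below the dim level of 5.28. Those of Pdgfd, 5.19 to 5.32, and of Gria4, 5.66 to 5.99, lay near it, so a change in these genes could be missed. Casp12, an inflammatory caspase by sequence, changed by 0.08 in Treg (adjusted p = 0.839) and by 0.07 between strains (adjusted p = 0.9). The group means of that probe set, 5.56 to 5.71, lay just above the dim level, and those of its second probe set, 4.35 to 4.46, lay below it.

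**Figure D2:**
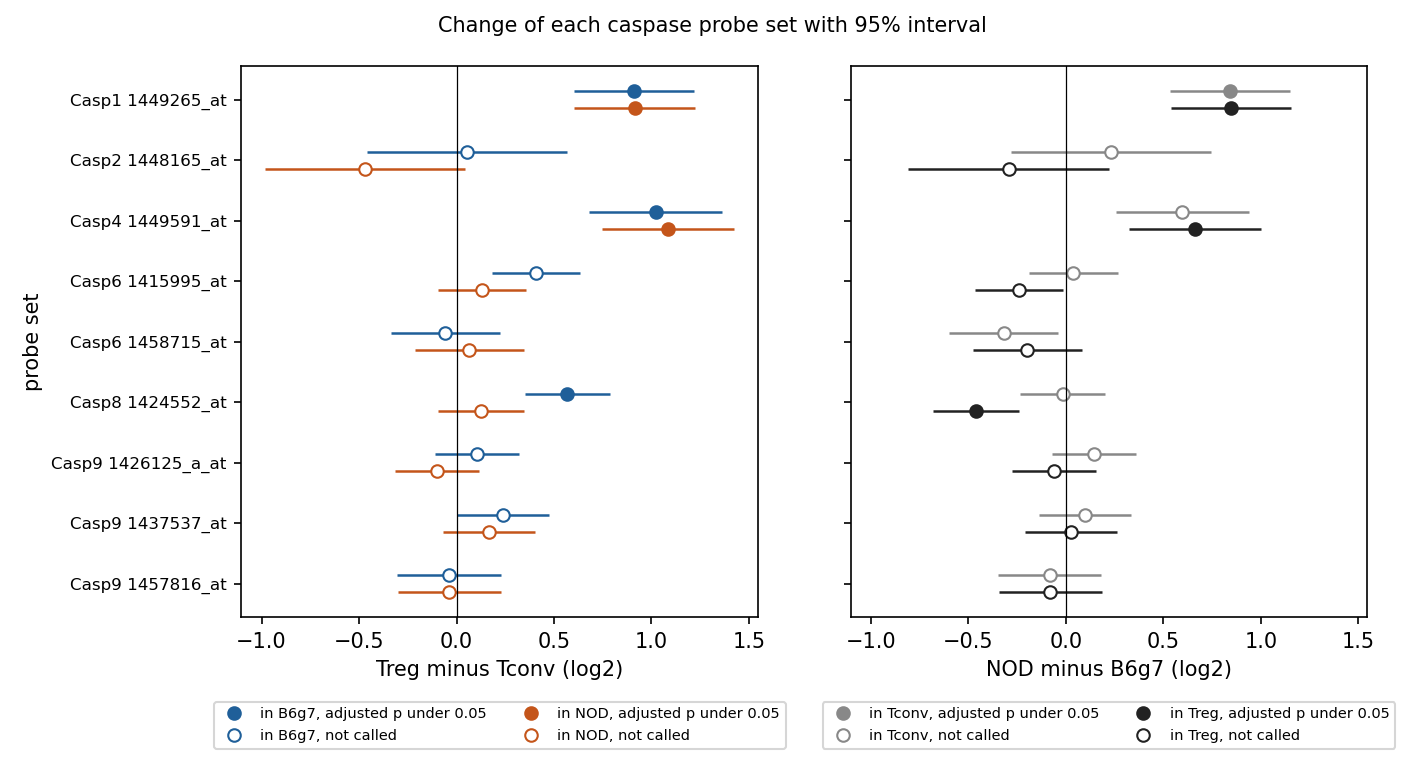
Log2 change of each of the 9 caspase probe sets with its 95% interval, for Treg minus Tconv in each strain (left) and NOD minus B6g7 in each population (right); filled points passed an adjusted p of 0.05. Casp1 and Casp4 lay at 0.84 to 1.08 in all comparisons but the strain difference of Casp4, which was 0.60 and 0.66, and Casp8 passed in B6g7 Treg against Tconv and, lower, in NOD against B6g7 Treg.

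Casp8 encodes the initiator caspase of death receptors, which is recruited through the adaptor FADD and, when paired with the catalytically inactive cFLIP, holds back necroptosis. Its probe set 1424552_at read 10.95, 11.04 and 10.80 in B6g7 Tconv and 11.59, 11.41 and 11.50 in B6g7 Treg. In NOD the arrays read 11.06, 10.77 and 10.90 in Tconv and 11.05, 10.97 and 11.09 in Treg. In B6g7 the Treg arrays lay above the Tconv arrays, an order found in 8.5% of all probe sets. In NOD the groups overlapped. The rise in B6g7 Treg was 0.57 ± 0.10 (1.48-fold, adjusted p = 0.00577), and the call was lost without the 4 arrays numbered replicate 1 (adjusted p = 0.0675). In NOD the change was 0.12 with a 95% interval of -0.09 to 0.34 (adjusted p = 0.817).

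The difference between the strains in the Treg change of Casp8 was -0.44 ± 0.14, with a 95% interval of -0.75 to -0.13. It had an unadjusted p of 0.00869 and did not pass the adjustment over all probe sets (adjusted p = 0.962), so the change was not shown to differ between strains. No caspase was called in that comparison, where 0.0933% of all probe sets were, 42 in number. Casp8 was the 1 caspase called lower in NOD than in B6g7, by a change of -0.46 in Treg (adjusted p = 0.0236), against 1.66% of all probe sets. In Tconv the strains differed by -0.02 (adjusted p = 0.982). The call in Treg was kept in 1 of the 6 fits that each left out 1 Treg array (highest adjusted p = 0.102). Averaged over strains, Casp8 rose by 0.35 ± 0.07 in Treg (adjusted p = 0.00964).

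Casp9 and Casp2 encode the other initiators. Caspase-9 is activated on the apoptosome, which forms when mitochondria release cytochrome c, and caspase-2 on the PIDDosome, a complex that responds to DNA damage and extra centrosomes. The 3 probe sets of Casp9 gave no call in any of the 7 comparisons. The brightest, 1437537_at, ranged from 8.71 to 8.77 in B6g7 Tconv and from 8.75 to 9.11 in B6g7 Treg, and from 8.76 to 8.94 and 8.90 to 9.12 in the same populations of NOD. Its change averaged over strains was 0.20 (95% interval 0.04 to 0.37, adjusted p = 0.202). Those of 1426125_a_at and 1457816_at were 0.00 and -0.04, and all of their groups overlapped in that comparison.

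Casp2 (1448165_at) varied most among arrays of one group. It read 11.53, 11.55 and 10.95 in B6g7 Tconv and 11.73, 11.14 and 11.32 in B6g7 Treg. In NOD it read 11.94, 11.49 and 11.28 in Tconv and 11.54, 10.80 and 10.97 in Treg. All groups overlapped, and 73.6% of the variance lay within groups, with a pooled SD of 0.34. The change was 0.05 in B6g7 (adjusted p = 0.97) and -0.47 in NOD (95% interval -0.98 to 0.05, adjusted p = 0.544).

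A measure of RNA length moved with Casp2. The 3′ minus 5′ log2 signal of actin, which is larger where the RNA copies are shorter, ranged from 2.66 to 4.70 over the arrays. Replicate 1 of B6g7 Treg, NOD Tconv and NOD Treg had both the highest Casp2 of its group and the lowest actin difference, at 2.66, 2.97 and 3.29. In B6g7 Tconv replicate 3 had the lowest Casp2 and the highest actin difference, 4.43. With the actin difference as a covariate, the NOD change of Casp2 was -0.27 (adjusted p = 0.353). The part of RNA length in the Casp2 level was not tested further.

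Casp6 encodes an executioner that cleaves nuclear lamins, and its 2 probe sets disagreed. By 1415995_at, the brighter, the B6g7 arrays read 8.70, 8.65 and 8.50 in Tconv and 8.91, 9.02 and 9.13 in Treg. The NOD arrays read 8.67, 8.52 and 8.76 in Tconv and 8.67, 8.75 and 8.93 in Treg. The B6g7 groups did not overlap, an order in that direction found for 4 of 9 caspase probe sets and 8.5% of all. The change was 0.41 ± 0.10 in B6g7 (adjusted p = 0.0559) and 0.27 ± 0.07 averaged over strains (adjusted p = 0.0544), and neither passed. By 1458715_at the change was -0.06 in B6g7, 0.07 in NOD and 0.00 averaged over strains. The mean of both probe sets changed by 0.14 in Treg (adjusted p = 0.231).

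**Figure D3:**
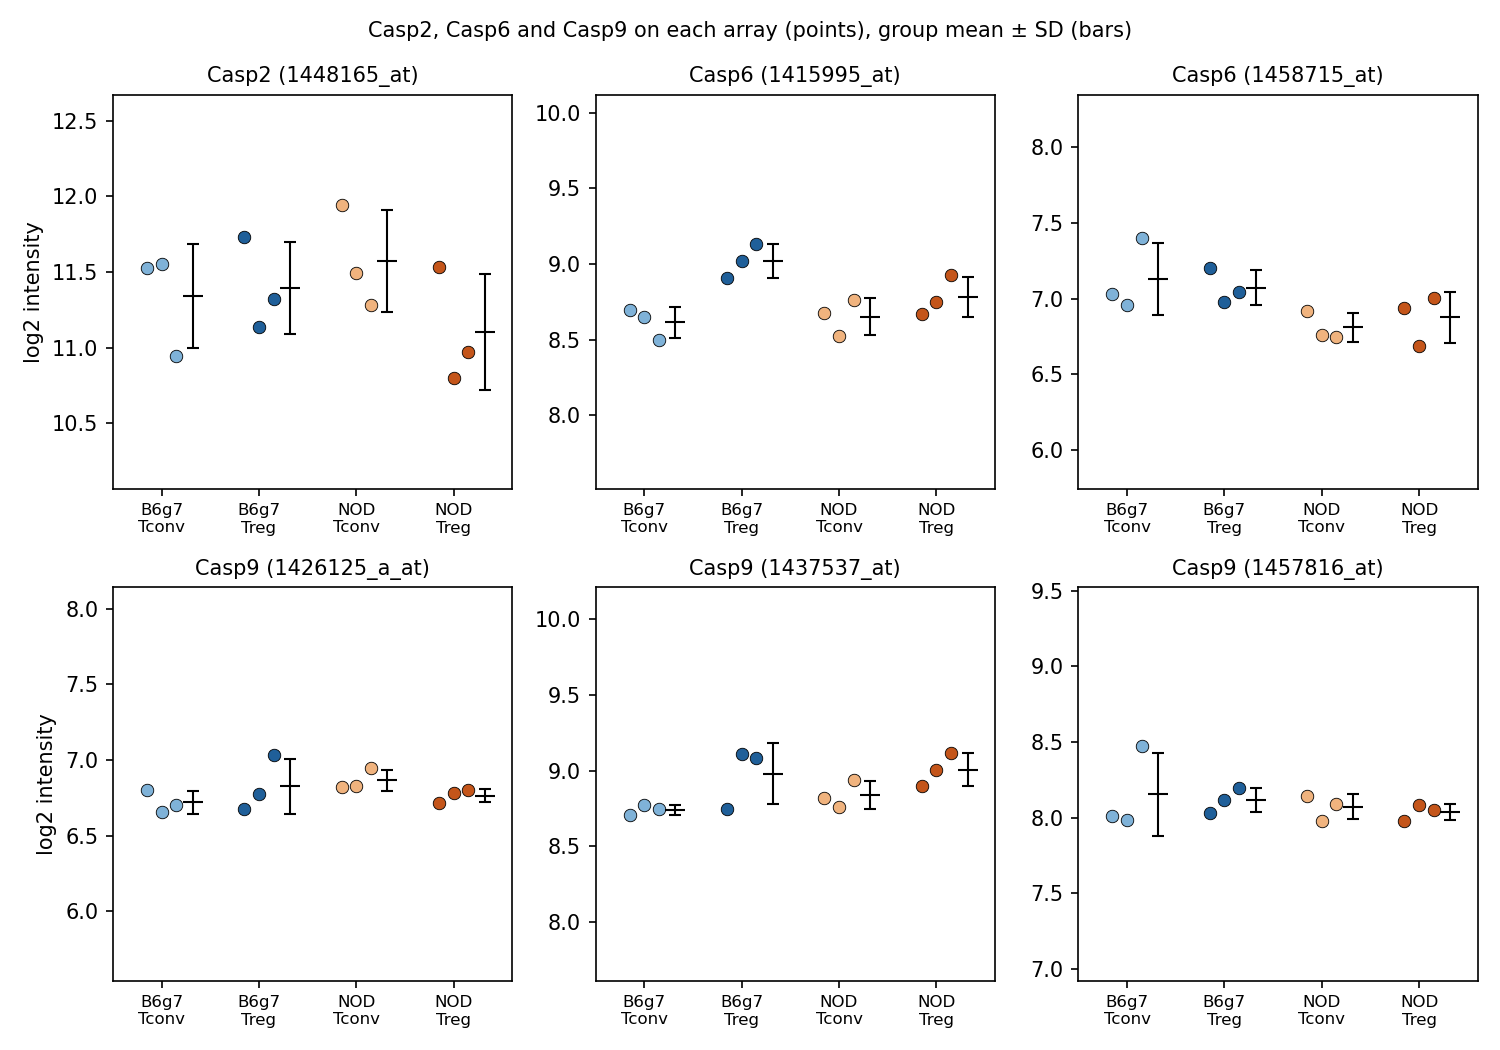
Log2 intensity of the probe sets of Casp2, Casp6 and Casp9 on each of the 12 arrays (points, left to right replicates 1 to 3) with the group mean ± SD (bars, n = 3), in the same 4 groups; every panel spans the same length of log2 scale. None was called in any comparison, and Casp2 had the widest spread within groups.

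The genes whose levels over the 12 arrays were most like those of a caspase were named by Pearson's r among 15371 genes, as a description with no test. All pairs share the same 4 groups, so a gene with a like group pattern scores high. The closest to Casp1 were Ctsw (0.974), Myh10 (0.970) and Abhd17c (0.964), each called higher in Treg and in NOD. Closest to Casp4 were Endod1 (0.964), Spry1 (0.962) and the tumour necrosis factor receptor gene Tnfrsf1b (0.959), and Casp1 and Casp4 had an r of 0.93 with each other. Casp8 was followed by Pgpep1l (0.958), Fbxo17 (0.957) and Naip5 (0.936), each called higher in Treg and lower in NOD. Casp6 was nearest to Relb (0.949), Casp9 to the T cell receptor segment Trbv13-2 (0.976) and Casp2 to Zcchc4 (0.984).

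Beyond the caspases, 8 lists of genes that work with them held 99 genes, of which 86 were measured. Averaged over strains, 16 of the 86 were called higher and 2 lower in Treg, where 4.46% and 3.03% of all genes were. Averaged over populations, 5 were called higher and 2 lower in NOD, against 3.25% and 2.56%. None was called for the difference between strains in the Treg change. The lists were chosen with results of these data known, so these shares are a description.

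Among inflammasome genes, 3 of 16 measured were called higher and 1 lower in Treg, with a median change of 0.07 against -0.01 for all genes. Naip5, a sensor of bacterial flagellin, was 1.75 higher (adjusted p = 6.99e-05). Its mean went from 5.72 in Tconv to 8.17 in Treg of B6g7 mice, and from 5.45 to 6.50 in those of NOD. The strain change was -0.97 (adjusted p = 0.00814). Naip genes are near-identical copies, so which copy the probes read is uncertain. Nek7, a partner of NLRP3, rose by 0.48 (adjusted p = 0.000228). Its other probe sets gave 0.41 (adjusted p = 0.0585) and 0.49 (adjusted p = 0.416) and were not called. Pycard, the adaptor that links sensors to caspase-1, fell by 0.48 averaged over strains (adjusted p = 0.0045), while its 2 other probe sets gave -0.04 each and were not called. Its change was -0.16 in B6g7 (adjusted p = 0.746) and -0.80 in NOD (adjusted p = 0.00242), with NOD Tconv the highest group at 10.39, and the difference between strains did not pass (adjusted p = 0.716). Nlrp3 (-0.01), Gsdmd (0.04), Il1b (-0.02) and Il18 (0.18), the sensor and the substrates best known for caspase-1, did not pass.

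The interferon and innate genes tied to caspase-1 and caspase-4 had 4 of 10 called higher in Treg and a median of 0.32. Gbp3, a guanylate-binding protein of the family that exposes bacterial lipopolysaccharide to mouse caspase-4, rose by 2.39 ± 0.14 (5.22-fold, adjusted p = 2.13e-07). Gbp7 rose by 0.72 (adjusted p = 0.0352), the interferon gamma receptor chain Ifngr1 by 0.64 (adjusted p = 0.00095) and the type I interferon receptor chain Ifnar1 by 0.32 (adjusted p = 0.0128). The other probe set of Ifnar1 gave 0.555 and was not called (adjusted p = 0.13), while that of Gbp7 was called (adjusted p = 0.0201). Between strains only Irf1, an interferon-induced factor, was called, 0.33 higher in NOD (adjusted p = 0.0312).

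Of 19 measured death receptor genes, 4 were called higher and 1 lower in Treg, with a median of 0.02. Tnfrsf1b, the TNF receptor 2 gene, was 1.24 higher in Treg (adjusted p = 4.98e-06) and 0.73 higher in NOD (adjusted p = 0.000517), while its other probe set gave 0.05 and 0.10 and was not called. Fasl, the ligand of Fas, fell by 1.25 (adjusted p = 5.99e-06), though its other probe set changed by -0.11 and was not called. Tnfsf10, which encodes TRAIL, rose by 0.67 (adjusted p = 5.16e-05), Tnfaip3, the NF-kappaB inhibitor A20, by 0.66 (adjusted p = 0.0466), and Bid, the caspase-8 substrate that carries the signal to mitochondria, by 0.55 (adjusted p = 0.00173). Tnfaip3 was 0.84 higher in NOD (adjusted p = 0.0118), and Bid changed by -0.47 there (adjusted p = 0.00513). A second probe set of Tnfaip3 gave -0.17 in Treg and -0.04 between strains, and 1 of the other 2 of Bid gave 0.06 and -0.03, none of them called. Fadd (-0.01), Cflar (-0.22) and Ripk3 (0.02), which act with caspase-8, did not pass in Treg, and Ripk1 was listed but not measured.

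In the mitochondrial list 3 of 14 were called higher in Treg, with a median of 0.16. Pmaip1, which encodes the BH3-only protein NOXA, rose by 2.49 ± 0.18 (5.62-fold, adjusted p = 1.18e-06) and was 1.71 higher in NOD (adjusted p = 3.61e-05). The survival gene Bcl2l1 rose by 0.77 (adjusted p = 2.39e-05), though its 3 other probe sets, near the dim level, gave -0.10 to 0.05 and were not called. The protease gene Htra2 rose by 0.35 (adjusted p = 0.0179), and its other probe set gave 0.17, not called. The brightest probe set of Bcl2 put it 0.97 higher in NOD (adjusted p = 0.0405), but another, 1443837_x_at, gave -0.85 (adjusted p = 0.00136). Its remaining probe sets gave 0.01 to 0.10 between strains and were not called. In Treg, 1437122_at (0.61, adjusted p = 0.000148) and 1457687_at (0.33, adjusted p = 0.00536) were called higher. The probe sets 1422938_at (0.05) and 1443837_x_at (0.37) were not, nor was the brightest, 1440770_at, averaged over strains. The means of 1440770_at were 10.77 in Tconv and 11.63 in Treg of B6g7, and 12.09 and 12.255 in those of NOD. Apaf1 (-0.01) and Cycs (0.03), the parts of the apoptosome that activates caspase-9, did not pass.

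Inhibitors of apoptosis proteins, some of which bind caspases directly, had 3 of 8 called higher in Treg and a median of 0.31. Birc3 rose by 0.75 (adjusted p = 3.45e-05), and the other calls were Naip5 and Naip6, the latter at 0.49 (adjusted p = 0.00709). Xiap, the direct inhibitor of caspase-9, changed by 0.18 (adjusted p = 0.728). None of the 4 measured PIDDosome genes was called in Treg or between strains. Of 16 caspase substrates and execution genes, Vim alone was called averaged over strains, at 0.38 (adjusted p = 0.0253). The list's median was -0.09. In B6g7 mice 1 gene of this list was called lower in Treg and none higher. Another probe set of Vim was called averaged over strains, at 0.46 (adjusted p = 0.0224), and another was not (adjusted p = 0.204). A dimmer probe set of Stk4 was called lower averaged over strains, at -0.46 (adjusted p = 0.00236). Gsn, which encodes gelsolin, changed by -0.81 on its brightest probe set (adjusted p = 0.0532), and 3 of its other probe sets were called lower.

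**Figure D4:**
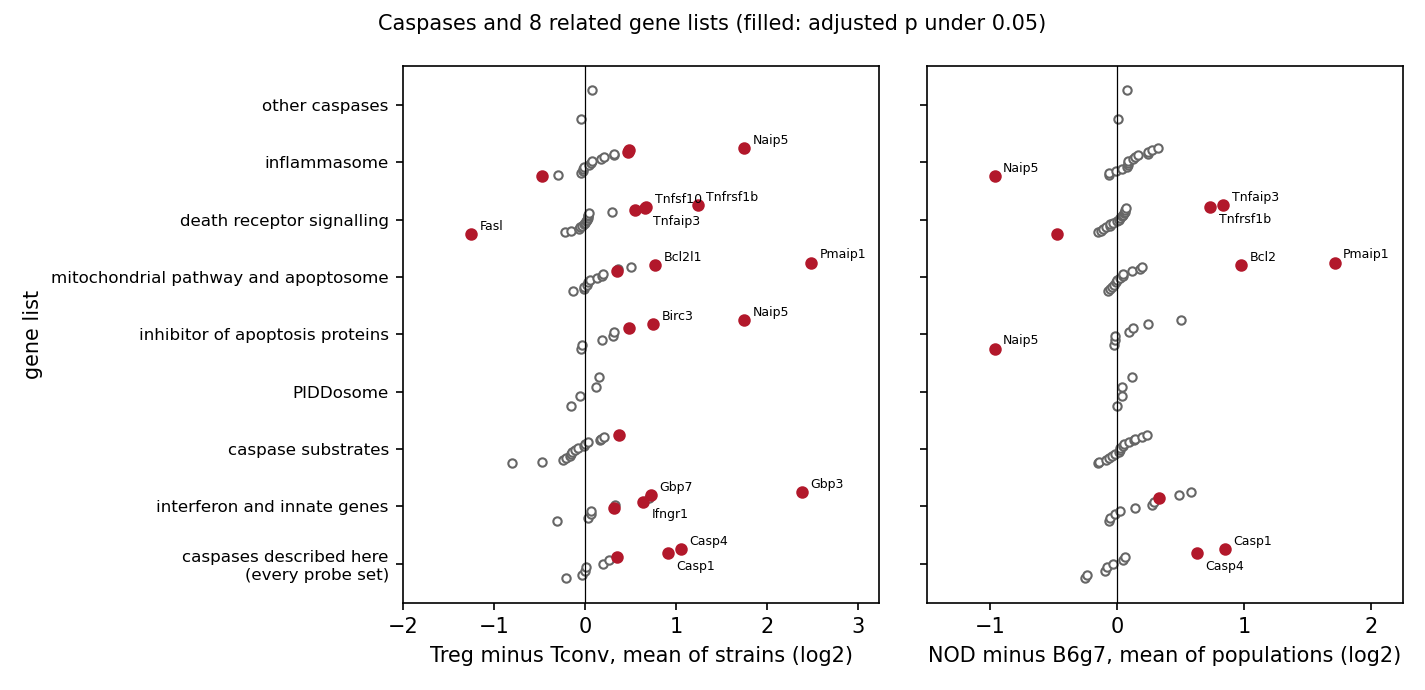
Log2 change of each measured gene of the 8 lists and of the 9 caspase probe sets (bottom row), for Treg minus Tconv averaged over strains (left) and NOD minus B6g7 averaged over populations (right); filled points passed an adjusted p of 0.05 and those beyond 0.6 are named. Gbp3 and Pmaip1 lay farthest to the right in Treg, at 2.39 and 2.49, while PIDDosome genes held no filled point.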

How the data were processed

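RNA of 12 pools was measured on 1-colour Affymetrix arrays. The deposited values are linear intensities, 1 for each probe set on each array, that the authors normalized with RMA, as stated in the series text and in the submitters' processing notes; its version is not given in the sources used here. Here log2 was taken with no further filter, all probe sets but 64 controls were tested, 45037 in number, with limma 3.58.1 in R 4.3.3 (1 mean per group, eBayes, Benjamini-Hochberg, adjusted p under 0.05). The brightest probe set stood for a gene in the lists (18193 genes). No detection calls came with the values. The caspases and lists were chosen with earlier results of these data known. Named were all caspase probe sets and, per list, up to 4 genes of smallest p for population and for strain, some left out for brevity; other genes of the lists were chosen after their values were seen. Same-numbered arrays deviated together (r over 0.1 for every number) between NOD Treg and NOD Tconv (0.31 to 0.56) and between the Treg of both strains (0.30 to 0.67), not in the other 2 direct comparisons. No exact permutation test was run, since the smallest p for 3 arrays against 3 is 0.1.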

Additional observations from a re-analysis of the deposited data

How the results depend on the processing

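The alternatives were intensity plus 32 before log2, quantile or median scaling, a filter on dim probe sets, array weights, the replicate number as a block, a trended and robust spread, actin 3′ minus 5′ as a covariate, only the groups compared, and arrays left out. Of 1157 caspase values under them, 16 lost their call, 20 gained one and 0 called values changed sign. The calls of Casp1 and Casp4 for Treg against Tconv held under each, as did that of Casp8 averaged over strains. The number of caspase probe sets called moved beyond 1.5 times as follows. Array weights gave 5 in B6g7 Treg against Tconv (3 in the main analysis), 5 averaged over strains (3) and 2 for NOD against B6g7 in Tconv (1). The replicate block and the actin covariate also gave 2 in that Tconv comparison, where Casp4 then passed. The block changed no call in the 2 comparisons whose numbers paired arrays. Without the 4 arrays numbered replicate 1, NOD against B6g7 gave 0 in Treg (3) and 1 averaged (2), with fewer arrays. Leaving out 1 array at a time gave 3 to 3 calls in B6g7 Treg against Tconv, 2 to 2 in NOD, 3 to 5 averaged (5 without B6g7 Treg replicate 1), 1 to 2 for strain in Tconv (2 without B6g7 Tconv replicate 3), 1 to 2 in Treg, 2 to 2 averaged and 0 to 0 for the difference between strains. Casp6 (1415995_at) passed averaged over strains in 6 of 22 alternatives. Over all probe sets, calls moved beyond 1.5 times in several comparisons. For Treg against Tconv in B6g7 they went from 1519 to 3460 with array weights, 2286 with the block, 2496 with the actin covariate and 976 with only the groups compared. In NOD they went from 1443 to 2362 with the block and 2225 with actin, and averaged over strains from 2632 to 4796 with weights and 4138 with actin. For NOD against B6g7 they went in Tconv from 1333 to 2181 with weights, 2124 with the block and 2077 with actin, in Treg from 1468 to 2361 with weights, 2340 with actin and 976 with only the groups compared, and averaged from 2475 to 3920 with weights and 3880 with actin. For the difference between strains, 42 became 79, 89 and 71 with weights, block and actin, 26 with the filter and 27 without NOD Treg replicate 3. No scaling moved the median of all probe sets by over 0.1. With 3 arrays per group and no detection calls, small changes and dim genes are measured with low precision.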
